A study of Mus musculus with 6 samples.

Results

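Microglia, the resident macrophages of the brain, were followed in the cerebellum of L1cam knockout and wild type mice through 10 marker genes: C1qa, C1qb, C1qc, Csf1r, Cx3cr1, Cd68, Tyrobp, Ctss, Aif1 and Laptm5. A probe set was taken as a member when the array annotation gave it a single gene symbol and that symbol was one of the 10. This found all 10 of the genes, among 8251 genes with a probe set of their own, and 14 of the 12422 probe sets tested, with 2 probe sets each for C1qb, Csf1r, Cd68 and Laptm5 and 1 for each of the other 6. RNA came from whole cerebellum at postnatal day 11 and was hybridised to Affymetrix Murine Genome U74Av2 arrays, 1 mouse per array. The knockout group was 3 male mice hemizygous for the L1CAM knockout (-/Y), and the control group was 3 wild type siblings, whose sex the labels do not give. All 6 mice carry the strain label 129S2/SvPasCrlf, and the design text calls the line congenic on 129Sv. Which part of L1cam was altered is not given in the sources used here. Values are log2 expression values from RMA, which corrects background, normalizes between arrays and combines the probes of a probe set.

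Microglia enter the brain early in development from the yolk sac and spread through the cerebellum while its neurons are still being born and its axons myelinated. They depend on signalling through Csf1r, keep contact with neurons through Cx3cr1, and clear dying cells and tag synapses with complement C1q. Several of the 10 genes are also expressed by macrophages of the meninges and by blood monocytes, so they mark the myeloid lineage more than microglia alone. In RNA from whole tissue, fewer microglia and less RNA per microglia cannot be told apart.

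The proximal promoters of several members are shown because PU.1, the transcription factor encoded by Spi1, is known to act at the promoters of myeloid genes, and Spi1 was itself on the array. RefSeq promoters of assembly GRCm38.p6, 250 bases before to 50 after the start of a gene, were used for 7 of the 10 genes. No promoter of C1qa, Csf1r or Tyrobp was used, so the counts below say nothing about these genes. The letters GAGGAA, a frequent form of the PU.1 core, were searched on both strands. They stood in 6 of the 7 promoters, and in 28.3% of all 32851 promoters of the same length. The longer form GAGGAAGT, whose matches contain the shorter letters, stood in 2 of the 7, for Ctss and C1qc, and in 3.20% of all promoters. In C1qc it takes in the match printed here, while in Ctss it did not lie wholly before the start site and is not printed. No binding was measured here, and a match is only a run of letters. Below are 60 bases around each match that lay wholly before the start site, 5′ to 3′ on the strand of the gene, with the match in capitals (TTCCTC where it lies on the opposite strand).
C1qb, chr4:136886201-136886260, minus strand, match 30 bases before the start: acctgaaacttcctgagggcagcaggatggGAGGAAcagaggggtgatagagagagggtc
C1qc, chr4:136893075-136893134, minus strand, match 193 bases before the start: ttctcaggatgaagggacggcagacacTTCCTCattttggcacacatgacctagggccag
Laptm5, chr4:130913251-130913310, plus strand, match 38 bases before the start: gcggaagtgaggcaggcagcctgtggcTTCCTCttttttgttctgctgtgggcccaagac
Ctss, chr3:95526595-95526654, plus strand, match 164 bases before the start: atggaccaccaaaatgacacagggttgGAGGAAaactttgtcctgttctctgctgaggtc
Cd68, chr11:69666361-69666420, minus strand, match 225 bases before the start: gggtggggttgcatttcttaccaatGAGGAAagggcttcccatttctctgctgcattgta
Aif1, chr17:35176053-35176112, minus strand, match 7 bases before the start: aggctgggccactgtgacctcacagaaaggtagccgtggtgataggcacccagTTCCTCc

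L1cam itself was lower in every knockout array than in any wild type array, at 8.25, 8.01 and 7.91 against 8.79, 8.48 and 8.73, a difference of -0.60 that did not pass (limma adjusted p = 0.841, 2-sided exact permutation p = 0.1, the smallest that 3 arrays against 3 allow). That fall was the largest among all 12422 probe sets tested (limma unadjusted p = 0.00015). Some markers of cerebellar neurons stood near the top of the array range, such as Zic1 at percentile 99.7 of mean level and Calb1 at 96.7. Others lay lower, such as Atoh1 at 45.5 and Pcp4 at 11.4. Array medians ran from 8.87 to 8.94. For the Gapdh array controls, the signal at the 3′ end minus that at the 5′ end, a gap that widens when RNA is short or degraded, was 0.67 in knockout 1 and lay between -0.048 and 0.13 in the other 5 arrays. The Actb gap was 1.09 in knockout 1 and between 0.82 and 0.95 in the others. Other controls did not set knockout 1 apart. The Pcx gap was 0.88 there and 0.85 in wild type 1, and the Tfrc gap was widest in knockout 3, at 1.48 against 1.33 in knockout 1.

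None of the 14 microglial probe sets passed the test for a difference between genotypes. In limma, 0 of 14 passed an adjusted p of 0.05 (smallest adjusted p = 0.922), where 0 percent of all probe sets passed, and 0 of 14 reached an unadjusted p under 0.05, where 5.08% of all probe sets did. Knockout means were higher for 7 probe sets and lower for 7, while 37.7% of all probe sets had a higher knockout mean. The median difference over the 14 was -0.00043 on the log2 scale, beside -0.023 over all probe sets tested. Differences ran from -0.11 to 0.19, and each of the 14 unadjusted 95% intervals held 0. None of these intervals reached a change in array signal of more than 1.33-fold in either direction. Of the 14, 10 stayed within 1.2-fold, as did 73.3% of all probe sets. The probe sets 162173_i_at of Cd68 (percentile 7.62 of mean level), 102330_at of Aif1 (14.5) and 161832_r_at of Csf1r (19.8) lay low in the range of the array, where a fall can hardly show, so the lower bounds of their intervals say less. These intervals give the size of change in signal that the arrays leave room for and do not show that the genotypes are equal. They do not bound the change in RNA, of which array signal may show only a part.

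**Figure D1:**
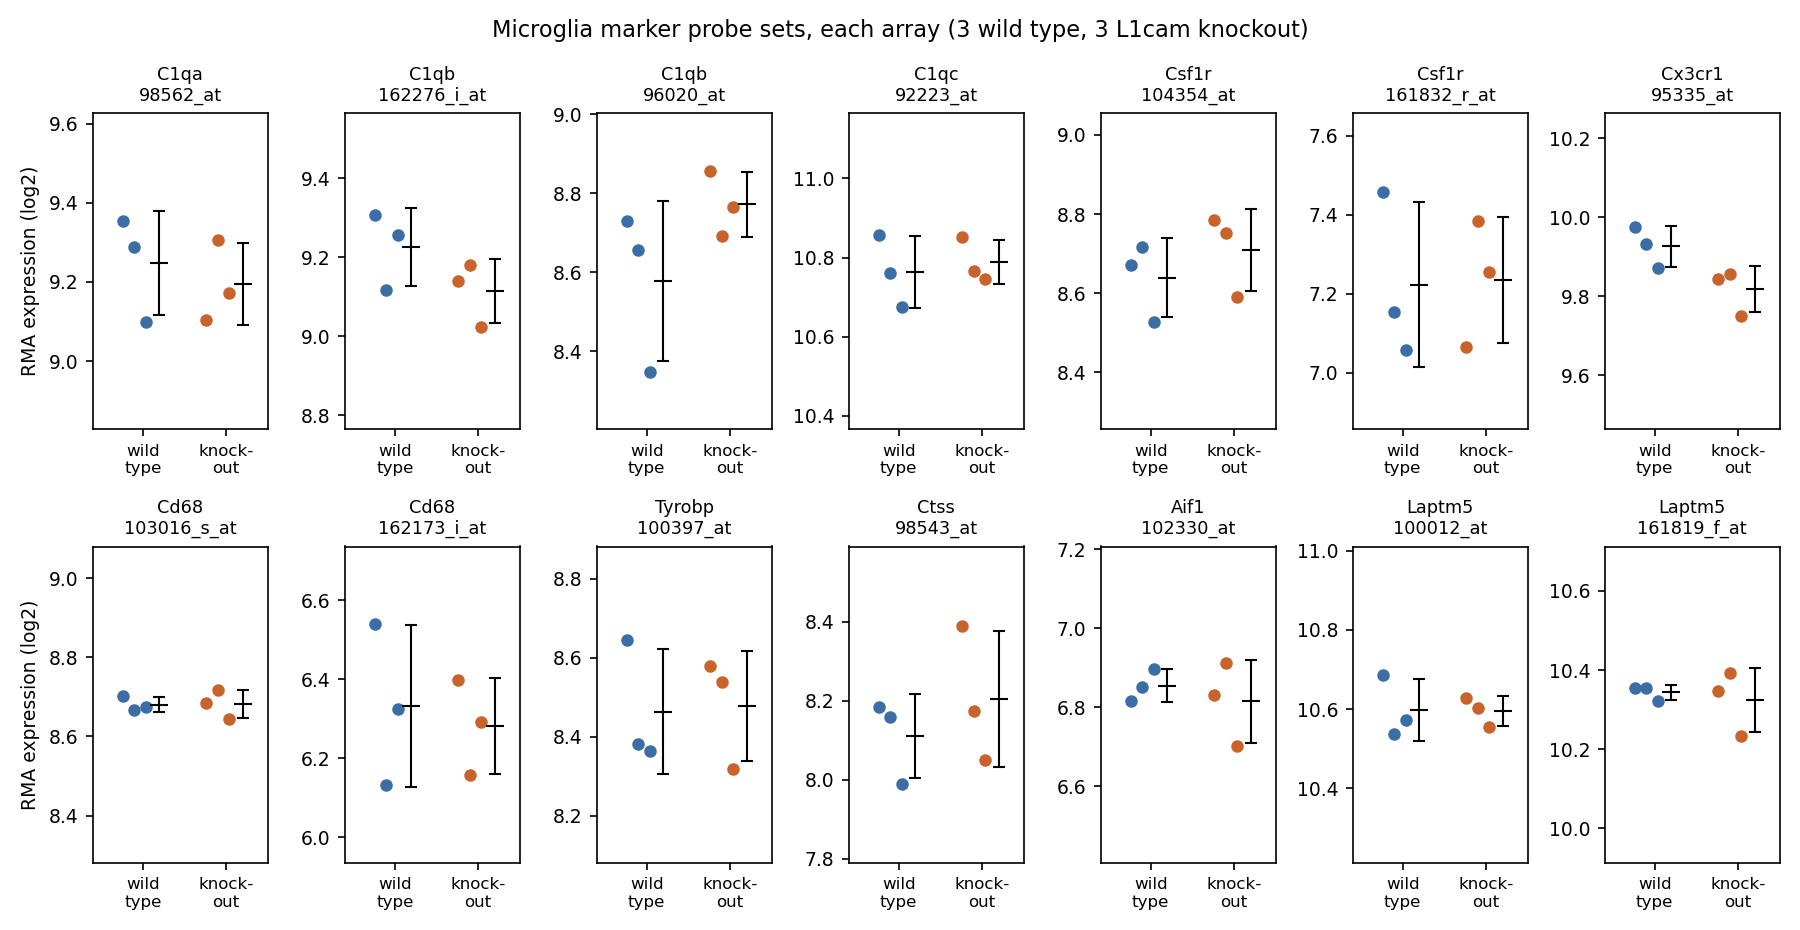
RMA log2 expression of the 14 microglial probe sets (1 panel each) in 3 wild type arrays (blue) and 3 L1cam knockout arrays (orange), with replicates 1 to 3 from left to right and the mean ± SD beside them. Every panel spans the same height of 0.8 log2 with its own starting level, and the genotypes overlap in all panels except that of Cx3cr1.

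C1qa, C1qb and C1qc encode the chains of C1q, the recognition protein that starts the classical complement pathway, and lie next to each other on mouse chromosome 4 in the RefSeq gene table. C1qa read 9.35, 9.29 and 9.10 in wild type 1 to 3 and 9.10, 9.31 and 9.17 in knockout 1 to 3. The groups overlapped over nearly their whole ranges, and the difference was -0.053 (95% interval -0.24 to 0.13). C1qc read 10.86, 10.76 and 10.67 in wild type and 10.85, 10.77 and 10.75 in the knockouts, so that the highest array of each genotype was nearly level with the other. Its difference was 0.025 (95% interval -0.13 to 0.18).

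C1qb was read by 2 probe sets whose differences had opposite signs. At 96020_at wild type read 8.73, 8.66 and 8.35 and the knockouts 8.86, 8.69 and 8.77, a difference of 0.19 (SE 0.097, 95% interval -0.021 to 0.41). This was the largest difference among the 14, and it did not pass (limma adjusted p = 0.922, unadjusted p = 0.0726). The low value of wild type 3 carried much of it: without that array the difference was 0.079, and without wild type 1 it was 0.27. At 162276_i_at wild type read 9.31, 9.12 and 9.25 and the knockouts 9.14, 9.18 and 9.02, a difference of -0.11 (SE 0.072, 95% interval -0.27 to 0.049). Here wild type 3 was not low, and knockout 3 was the lowest array. The gap between the 2 probe sets within an array was 0.58, 0.46 and 0.91 in wild type and 0.28, 0.49 and 0.26 in the knockouts. These gaps overlapped between genotypes, and their means differed by -0.31 (2-sided exact permutation p = 0.2, or 0.8 after Benjamini-Hochberg adjustment over the 4 genes with 2 probe sets). With 3 arrays against 3 this exact p cannot fall below 0.1, so the test cannot settle whether the 2 probe sets differ. No direction is given for C1qb.

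Csf1r is the receptor for the growth factors Csf1 and Il34 and is needed for microglia to survive. At 104354_at it read 8.67, 8.72 and 8.53 in wild type and 8.78, 8.75 and 8.59 in the knockouts. The third array of each genotype was the lowest, and the difference was 0.071 (95% interval -0.099 to 0.24). A dimmer probe set, 161832_r_at at percentile 19.8 of mean level, read 7.46, 7.15 and 7.06 in wild type and 7.07, 7.38 and 7.26 in the knockouts, a difference of 0.011 (95% interval -0.23 to 0.26). Both probe sets had a higher knockout mean, but their arrays were ordered differently, with knockout 1 the highest at 104354_at and next to the lowest at 161832_r_at.

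Cx3cr1, the receptor for the neuronal chemokine fractalkine, was the 1 member whose genotypes did not overlap. It read 9.98, 9.93 and 9.87 in wild type and 9.84, 9.86 and 9.75 in the knockouts, so that every knockout array lay below every wild type array, the nearest pair by only a small step. The difference was -0.11 (SE 0.062, 95% interval -0.25 to 0.029), or 1.08-fold lower, and it did not pass (limma adjusted p = 0.927). A separation in 1 of 14 probe sets, or 7.14%, stands beside 10.4% of all probe sets. In the direction of Cx3cr1, with knockouts below, 6.63% of all probe sets separated. Cx3cl1, its ligand, differed by -0.097 and -0.13 at its 2 probe sets, with overlapping genotypes at both.

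Tyrobp encodes DAP12, the adaptor that carries an immunoreceptor activation motif and passes on signals from Trem2 and related receptors. It read 8.64, 8.38 and 8.36 in wild type and 8.58, 8.54 and 8.32 in the knockouts, a difference of 0.014 (95% interval -0.20 to 0.22). Each genotype spanned about the same range, and the SDs of 0.16 in wild type and 0.14 in the knockouts (n = 3 each) exceeded the difference.

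Cd68, Ctss and Laptm5 encode proteins of the lysosome and endosome. Cd68, a membrane glycoprotein of phagocyte lysosomes, was the tightest member at 103016_s_at, with 8.70, 8.67 and 8.67 in wild type and 8.69, 8.72 and 8.64 in the knockouts. All 6 arrays lay within 0.072 of each other there, and the difference was 0.0016 (95% interval -0.13 to 0.13). Its other probe set, 162173_i_at, was dim (percentile 7.62 of mean level) and varied more, with 6.54, 6.13 and 6.32 in wild type and 6.40, 6.16 and 6.29 in the knockouts. That difference was -0.049 (95% interval -0.28 to 0.18).

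Ctss, a cathepsin that cuts the invariant chain of MHC class II and stays active outside the acid lysosome, read 8.18, 8.16 and 7.99 in wild type and 8.39, 8.17 and 8.05 in the knockouts. Knockout 1 stood above the other 5 arrays, and the difference of 0.094 (95% interval -0.11 to 0.30) became 0.00093 without it. Knockout 1 is also the array with the widest Gapdh gap, and the part of RNA quality in its Ctss value was not tested. Laptm5, a lysosomal membrane protein of blood and myeloid cells, read 10.69, 10.54 and 10.57 in wild type and 10.63, 10.60 and 10.55 in the knockouts at 100012_at. At 161819_f_at it read 10.35, 10.35 and 10.32 in wild type and 10.35, 10.39 and 10.23 in the knockouts. The differences were -0.0025 (95% interval -0.14 to 0.14) and -0.019 (95% interval -0.16 to 0.12), with overlap at both.

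Aif1, the actin-bundling protein known to histologists as Iba1, was dim on this array (percentile 14.5 of mean level). It read 6.82, 6.85 and 6.90 in wild type and 6.83, 6.91 and 6.70 in the knockouts. Knockout 3 was the lowest array and knockout 2 the highest, and the difference was -0.040 (95% interval -0.19 to 0.11).

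**Figure D2:**
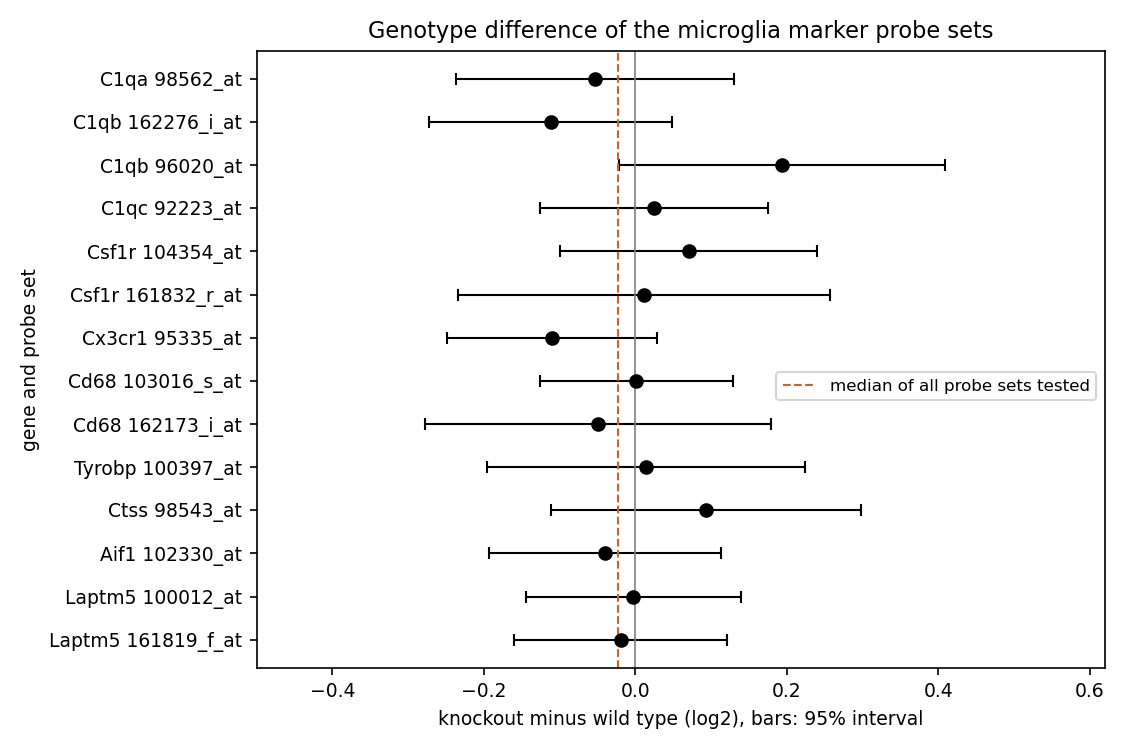
Knockout minus wild type difference in log2 expression for each of the 14 probe sets, with unadjusted 95% limma intervals (3 arrays per genotype) and the median over all 12422 probe sets as a dashed line at -0.023. All 14 intervals cross 0, and the 2 probe sets of C1qb lie at opposite ends of the range, at -0.11 and 0.19.

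Deviations of single arrays were shared by many of the 14 probe sets. Wild type 1 was the highest array for 8 of the 14 and above the mean of the 6 arrays for 12, with a median deviation of 0.085. Wild type 3 was the lowest for 6 and knockout 3 for another 6, with median deviations of -0.063 and -0.066. Knockout 1 and knockout 2 had median deviations of 0.023 and 0.026, and wild type 2 of -0.015. Over all probe sets the median deviation ran from -0.028 in knockout 3 to 0.024 in wild type 1, so both of those arrays were shifted the same way in general, and wild type 3, at 0.0080 over all probe sets, was not. The median deviations of the microglial genes overlapped between genotypes, from -0.063 to 0.085 in wild type and from -0.066 to 0.026 in the knockouts. The median difference over the 14 was 0.048 without wild type 1 and -0.025 without wild type 3.

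**Figure D3:**
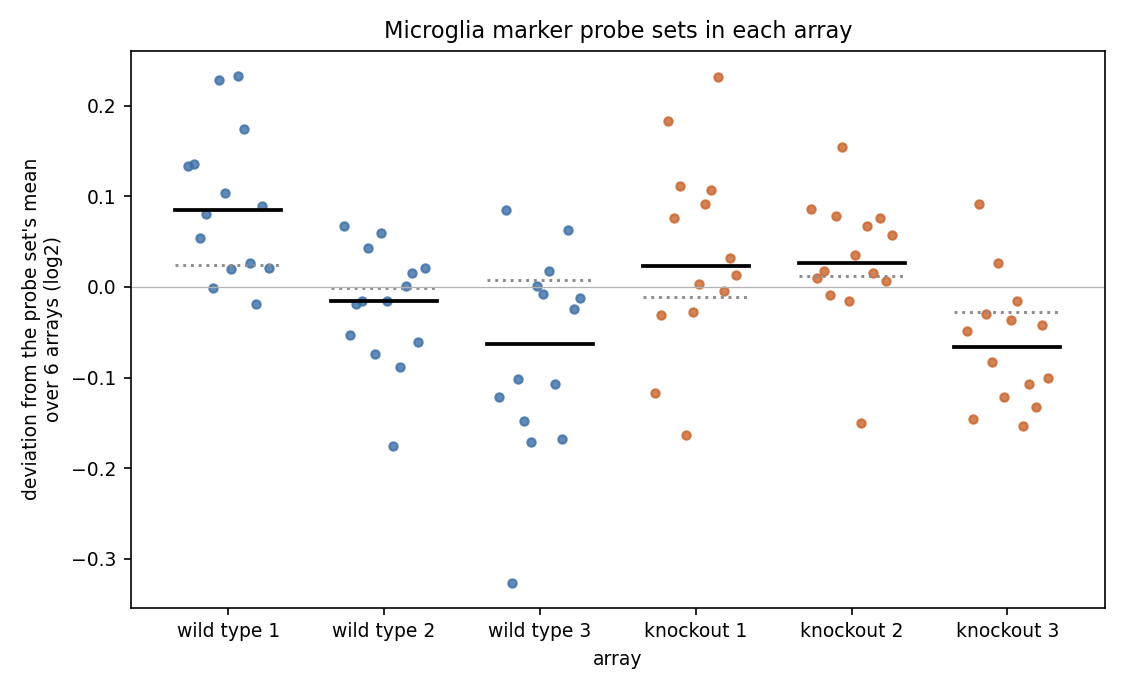
Deviation of each of the 14 microglial probe sets from its own mean over 6 arrays, in log2, for 3 wild type (blue) and 3 knockout arrays (orange), with the median of the 14 as a solid line and the median of all probe sets as a dotted line. Wild type 1 has the highest median at 0.085, and wild type 3 and knockout 3 have the lowest at -0.063 and -0.066.

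Genes that act with the 10 members were read from 7 lists, and no probe set of any list passed limma's adjusted p of 0.05. Each list's count of higher knockout means is to be set beside 37.7% of all probe sets, and its median beside -0.023. After median centring 55.4% of all probe sets were higher, and the list counts rose with them. With single arrays left out, the count higher ran from 4 to 8 for complement, 3 to 8 for ligands and factors, 6 to 12 for immunoreceptor signalling and 5 to 8 for resting microglia. It ran from 22 to 28 for the lysosome, 5 to 12 for phagocytic microglia and 10 to 17 for inflammatory activation. Complement genes outside C1q had 3 of 24 probe sets higher and 21 lower, where 62.3% of all probe sets were lower, with a median of -0.042. After median centring the same list had 10 higher and 14 lower. Clu, a complement inhibitor, differed by -0.13 and -0.025 at 2 probe sets, and Cr1l, a complement regulator, by 0.12 and -0.064. Itgam and Itgb2, which form complement receptor CR3 on microglia and are named here for that role, differed by -0.064 and -0.068, and the anaphylatoxin receptor C3ar1 by -0.098.

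Ligands of Csf1r and Cx3cr1 and myeloid transcription factors had 6 of 18 probe sets higher (8 after median centring), with a median difference of -0.043. Csf1, a ligand of Csf1r named for that role, differed by -0.016 (95% interval -0.15 to 0.12), with 10.46, 10.37 and 10.37 in wild type and 10.38, 10.36 and 10.42 in the knockouts. Spi1, which encodes PU.1, read 9.45, 9.29 and 9.24 in wild type and 9.29, 9.33 and 9.19 in the knockouts, a difference of -0.055 (95% interval -0.22 to 0.11). Irf8, its partner in microglial development, differed by 0.013. Maf, a transcription factor of macrophages and of other cells, differed by -0.11. Of these, Spi1 repeated the order of several members, with wild type 1 the highest array and knockout 3 the lowest.

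Receptors and kinases of immunoreceptor signalling had 8 of 23 probe sets higher (10 after median centring), with a median difference of -0.039. Fcer1g, a second adaptor of the kind of Tyrobp, differed by 0.11 and -0.076 at 2 probe sets, and Plcg2, a phospholipase downstream of Trem2, by -0.11. Ptprc, the leukocyte antigen CD45, was listed near the bottom of the range at all 3 of its probe sets (percentiles 1.26, 2.77 and 15.2), so these could hardly show a fall. Genes of resting microglia had 5 of 18 probe sets higher, with a median difference of -0.019, and 11 higher with a median of 0.013 after median centring. Sparc, a matrix protein that astrocytes and vessels also make, differed by 0.25 at an unadjusted p of 0.0210 (limma adjusted p = 0.922), and Rac2, a GTPase of blood cells, by -0.13.

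The lysosomal list had 26 of 39 probe sets higher, with a median difference of 0.028, which was 0.060 with 32 higher after median centring. Npc1, a cholesterol exporter of the lysosome, differed by -0.16 with every knockout array below every wild type array. Lamp2, a lysosomal membrane protein, differed by 0.19 with every knockout array above, and by 0.054 at its other probe set. Separation of the genotypes was seen in 3 of the 39, or 7.69%, beside 10.4% of all probe sets. Lysosomal genes are expressed in all cell types of the cerebellum, so the list does not stand for microglia alone.

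Genes of phagocytic microglia had 8 of 22 probe sets higher, with a median difference of -0.018, and 13 higher with a median of 0.013 after median centring. Apoe, a lipid carrier that astrocytes also make, differed by -0.19 at a dim probe set (percentile 13.8) and by -0.050 at another. Lgals1, a galectin, differed by 0.12. Genes of inflammatory activation had 14 of 29 probe sets higher, with a median difference of -0.0067, and 18 higher with a median of 0.025 after median centring. Cxcl2, a chemokine for neutrophils, differed by -0.19 and Nfkbia, an inhibitor of NF-kB, by 0.18 at one probe set and 0.091 at another, each with an unadjusted p of 0.018 or 0.019 at the first probe set and a limma adjusted p of 0.922. The cytokines Tnf and Il1b, named for their role, differed by -0.031 and 0.057.

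**Figure D4:**
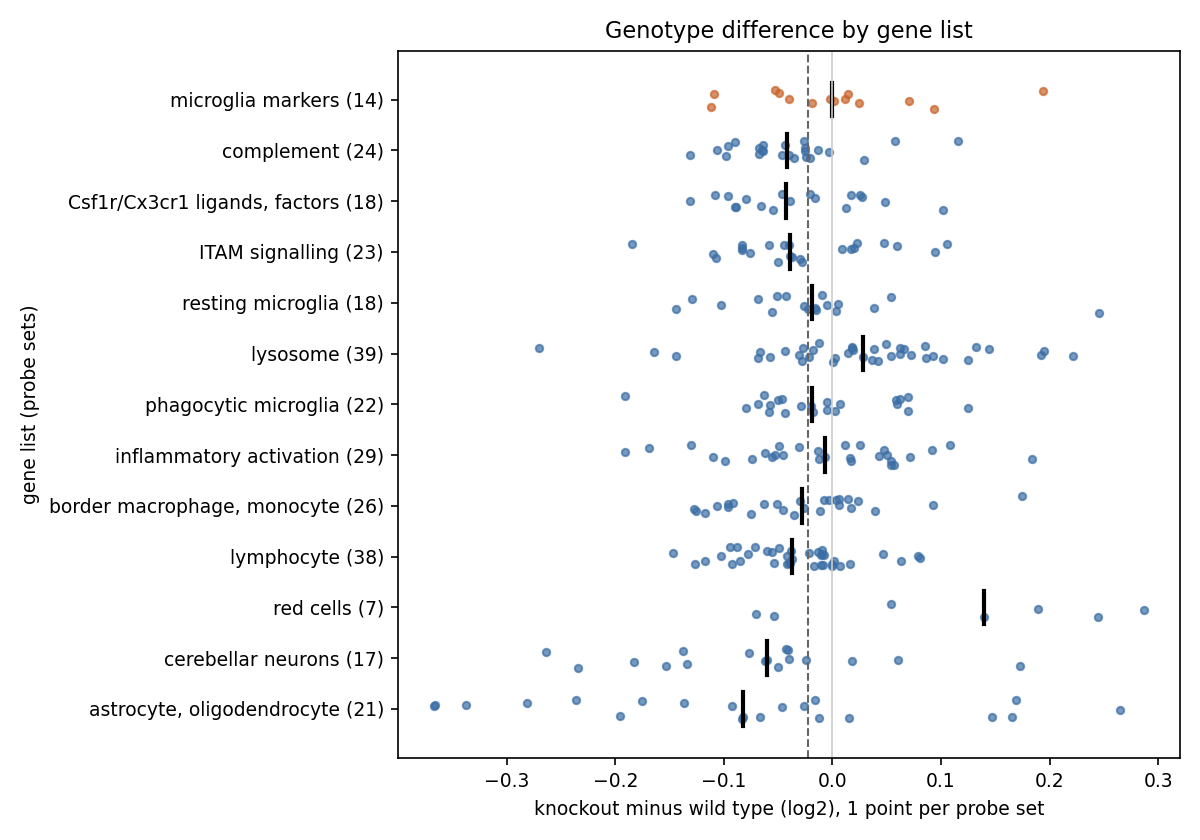
Knockout minus wild type difference in log2 expression for every probe set of 13 gene lists, with the list median as a black bar, the median of all probe sets (-0.023) as a dashed line and the number of probe sets in brackets. The microglial markers (orange) are centred at -0.00043, the red cell list at 0.14 (0.046 without knockout 2) and the astrocyte and oligodendrocyte list at -0.083 (-0.0070 without knockout 1).

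Other cells that share the microglial markers were read beside them. Markers of border macrophages, monocytes and granulocytes were measured for 22 of 30 listed genes, with higher knockout means at 9 of 26 probe sets, a median difference of -0.028 and a mean log2 level between 7.89 and 8.02 in wild type arrays and between 7.82 and 7.97 in knockout arrays. After median centring 14 of the 26 were higher (median 0.0037), and with single arrays left out between 4 and 13 were. Of their defining genes some lay low in mean level, such as Mrc1 (percentile 9.57), Lyve1 (12.9) and Ccr2 (10.7), and others lay well above it, such as Folr2 (63.8), Cd74 (59.8) and H2-Eb1 (82.8). Lymphocyte markers were read by 38 probe sets of 18 genes, many for Ighm alone, and probe sets of 1 gene are not independent. Of the 38, 7 were higher, with a median difference of -0.038. Mean levels were 7.73 to 7.83 in wild type and 7.70 to 7.80 in the knockouts. The count higher was 18 of 38 after median centring or quantile normalization, 16 after cyclic loess and 18 without wild type 1. It ran from 5 to 18 over the single arrays left out. Ltf, Pf4, Cd3e and Gzmb, the genes of these lists with the smallest unadjusted p, differed by between -0.15 and -0.12.

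Red cell markers had 5 of 7 probe sets higher, 3 of them at an unadjusted p under 0.05, where 2.46% of all probe sets were higher at that level, and a median of 0.14. That median was 0.046 without knockout 2, 0.057 without wild type 3 and between 0.14 and 0.20 with each of the other 4 arrays left out. Hba-a1, an alpha globin, read 14.48, 14.32 and 14.36 in wild type and 14.58, 14.72 and 14.73 in the knockouts, a difference of 0.29 (limma adjusted p = 0.841), and Bpgm, an enzyme of red cells, differed by 0.19. The mean level of the red cell list ran from 10.10 to 10.25 in wild type and from 10.22 to 10.35 in the knockouts. Blood brings leukocytes that express Laptm5, Tyrobp and Ctss, and its part in the values of these members was not tested.

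Markers of cerebellar neurons had 3 of 17 probe sets higher and a median difference of -0.060 (from -0.11 without wild type 1 to -0.032 without knockout 1), with Atoh1 at -0.13 and En2 at -0.18. Those of astrocytes and oligodendrocytes had 5 of 21 higher and a median difference of -0.083. Without knockout 1, the array with the widest Gapdh gap, 9 of 21 were higher and the median was -0.0070, and without wild type 3 it was -0.042. The part of RNA quality in this difference was not tested. This list held the water channel Aqp4 at -0.37 (limma adjusted p = 0.885) and Gfap, the intermediate filament of astrocytes, at 0.26. No probe set of either list passed.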

How the data were processed

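The deposited values are log2 expression values that the authors made with RMA, per the submitters' processing notes. No RMA version or setting is stated there. Of 12488 probe sets in the table, the 66 controls of the array were set aside. Symbols came from the annotation supplied for the array (1 symbol for 10833 probe sets, several for 396, none for 1193), and all 14 member probe sets kept their symbol in RefSeq. Genotype was tested with limma 3.58.1 in R 4.3.3 (lmFit, eBayes, 2-sided, Benjamini-Hochberg over 12422 probe sets, threshold 0.05) on the values as deposited, and single values with exact permutation tests in scipy 1.17.1. The fit was tested on simulated data. Arrays carry no read depth, and their number limits precision: the median half-width of the 95% intervals was 0.17 log2 for the members and 0.16 for all probe sets. RMA pulls arrays towards 1 distribution. The probe sets named are all 14 members, L1cam, and from each other list the 2 with the smallest unadjusted p; others are named for their role. The members and the 12 other lists were chosen with earlier results of these data known. Alternatives were quantile normalization, median centring, cyclic loess, trended robust variance, array weights, only probe sets above percentile 40 of mean level, the replicate number as a block, suffixed probe sets left out, and each array left out.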

Additional observations from a re-analysis of the deposited data

How the results depend on the processing

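Of 187 member differences recomputed over 14 alternatives, 24 changed sign and 0 passed limma's adjusted p of 0.05. The 5 probe sets that kept their sign throughout were both of C1qb, Csf1r at 104354_at, Cx3cr1 and Ctss. C1qb lay between -0.17 and -0.067 at 162276_i_at and between 0.079 and 0.27 at 96020_at, and Cx3cr1 between -0.14 and -0.076. Csf1r at 104354_at (0.015 to 0.13) and Ctss (0.00093 to 0.17) came close to a change of sign. Only C1qb at 96020_at reached an unadjusted p under 0.05, in 4 settings (lowest 0.0237, without wild type 1). Over all probe sets 0 passed in each alternative except without knockout 3, where 1 did. The member median stayed between -0.025 and 0.048. The spread of the array medians within a genotype was 0.065. Leaving out 1 array can hardly move the median by more than that, so the comparison is no test of stability. With median centring Laptm5 was 0.029 at 100012_at and 0.013 at 161819_f_at, and 9 of 14 members were higher, as were 55.4% of all probe sets. With array weights Laptm5 at 100012_at was 0.0053, Csf1r at 161832_r_at -0.017 and Cd68 at 103016_s_at -0.00013. With each array left out in turn, C1qa ran from -0.13 to 0.00048, C1qc from -0.020 to 0.071, Csf1r at 161832_r_at from -0.072 to 0.13, Cd68 from -0.016 to 0.020 at 103016_s_at and from -0.15 to 0.055 at 162173_i_at, Tyrobp from -0.036 to 0.10, Aif1 from -0.088 to 0.016, and Laptm5 from -0.033 to 0.041 and from -0.053 to 0.026. The cause was not tested. Same-numbered arrays deviated together for numbers 1 and 3 (correlations 0.16 and 0.17) but not for 2 (-0.32). The closest partner was knockout 2 for wild type 1, and knockout 3 for both wild type 2 and wild type 3. So few correlations cannot settle whether the numbers pair the mice. With the replicate block 0 probe sets passed. The member median of -0.00043 cannot move there, as each genotype holds every replicate number.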

Other observations

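Among lysosomal genes, the cathepsins had higher knockout means at nearly every probe set. This group was picked after its values were seen, so it has no test. With Ctss it held 17 probe sets of 10 genes, of which 16 were higher and 1, for Ctse, was lower (-0.012). Over all probe sets 37.7% were higher. The median of the group was 0.062 beside -0.023 over all probe sets. The 4 probe sets of Ctsb differed by 0.019, 0.072, 0.085 and 0.19, Ctsc by up to 0.13 and Ctsz by 0.14. None passed in limma (adjusted p from 0.922 to 0.999). With single arrays left out, between 12 and 17 of the 17 were higher and the median ran from 0.033 to 0.090. All 17 were higher after quantile normalization, median centring or cyclic loess, and 13 with array weights. Of all probe sets 47.8% were higher after quantile normalization or cyclic loess, 55.4% after median centring and 37.5% with array weights. Probe sets of 1 gene are not independent, and cathepsins are made by neurons and macroglia as well as by microglia.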
